A study of Mus musculus with 150 samples.

Results

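The nuclear genes of the mitochondrial respiratory chain and of ATP synthase were followed across a mouse tissue atlas. They were taken by symbol: every gene whose array annotation starts with Nduf, Uqcr, Atp5 or Cox4 to Cox8, and Sdha, Sdhb, Sdhc and Sdhd, with Cox7a1 and Cox8b kept out by the rule. This gave 69 of the 8251 genes on the array, read by 95 of the 10833 probe sets that carry a single symbol. By complex there were 29 genes of complex I, 4 of complex II, 7 of complex III, 13 of complex IV and 14 of complex V, and 2 assembly factors, Ndufaf1 and Ndufaf4. A gene was represented by its brightest probe set. For 18 of the 69 genes the name of that probe set carries a suffix. Those of Cox6a1, Cox6b2, Cox6c, Cox4i1, Uqcrb, Uqcrc2 and Atp5g2 are among the ones with the suffix f. Probe sets with this suffix may share sequence with other transcripts, and the part of such transcripts in their signal was not tested. Others carry r (Ndufb2, Cox6b1 and Atp5g1), s (Ndufa5 and Sdhb), i (Atp5e) or g (Atp5c1). How far these probe sets read only their own gene was not tested either.

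Total RNA of wild-type inbred mice had been hybridized to single-colour Affymetrix arrays. There were 50 arrays of 10 body tissues (heart, muscle, brown adipose tissue, white adipose tissue, liver, kidney, adrenal, testes, spleen and thymus), each tissue with 1 array from each of strains 129, AJ, B6, C3H and DBA. Another 98 arrays covered 24 neural tissues, with 3 to 7 arrays a tissue: 43 of strain 129, 47 of B6 and 8 of DBA, retina from B6 only. All animals were unmodified and untreated as far as the labels say, and the sources used here give neither age nor sex. Titles carry identifiers of animals or pools, and some recur in several tissues, such as pons, cerebellum and cortex of strain 129. Arrays of animals and of pools share 1 estimate of the spread in a fit. Where nothing says that arrays of a tissue came from separate animals, the p-values measure only the spread between these arrays.

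The chain moves electrons from NADH through complex I (NADH dehydrogenase) and from succinate through complex II (succinate dehydrogenase) to ubiquinone. Complex III (cytochrome bc1) passes them to cytochrome c, and complex IV (cytochrome c oxidase) to oxygen. Complexes I, III and IV pump protons across the inner membrane, and complex V (ATP synthase) makes ATP from the gradient. Heart uses the chain for contraction, and brown adipose tissue couples it to heat production through the uncoupling protein Ucp1. Several subunits of complex IV exist as isoforms from separate genes, among them a heart and muscle form and testis forms.

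The arrays were alike in overall brightness: the median intensity ran from 38.4 to 68.1, and Gapdh gave 0.748 to 1.41 as 3′ over 5′ signal. The array labelled 129 hippocampus replicate 1 and the one labelled DBA perirhinal cortex replicate 2 held the same value for all 12488 probe sets, and both were left out. Marker genes fitted most tissue labels, with 10 of 10 heart and 10 of 10 muscle markers highest in their own tissue, and 6 of 6 for kidney and for testes, but only 3 of 5 for brown and 2 of 5 for white adipose tissue. Some arrays also carried markers of a neighbouring tissue. The brown fat gene Ucp1 read 871 to 3862 on the 5 adrenal arrays, against 7745 to 13672 in brown adipose tissue. It read 1247 on AJ heart, against 15.6 to 370 on the other heart arrays. On C3H muscle it read 982, against 13.7 to 248 on the other muscle arrays, and in kidney it ran from 88.5 to 664. The part of brown fat in the heart, muscle and kidney levels was not tested. Muscle markers were high on 4 of the 5 brown adipose arrays, on C3H thymus and on 129 adrenal, with values given beside the results they touch. In tissue of mixed cells, fewer cells of a type and less RNA per cell cannot be told apart.

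Levels below are log2 intensities after raising values under a floor of 10.41 to that floor. To follow the genes as a group, each was centred on its mean over the 34 tissues, and the median was taken over the 60 members with a mean above 5.73, which is the median over all values of the atlas on this scale. The other 9 (Ndufa1, Ndufa12, Ndufc2, Ndufs4, Cox5a, Cox6b1, Cox8a, Atp5g1 and Atp5j2) were dim, and 5 of them (Ndufa12, Ndufc2, Cox5a, Cox8a and Atp5j2) passed that level in no tissue, so their values describe signal near the floor.

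Respiratory chain genes stood highest in heart, brown adipose tissue and muscle and lowest in spleen, pituitary and retina. The centred median was 1.78 in heart, 1.73 in brown adipose tissue and 1.33 in muscle. The 5 arrays ran from 1.69 to 1.90 in heart, from 1.48 to 1.86 in brown adipose tissue and from 1.05 to 1.54 in muscle. Heart and brown adipose tissue overlapped array by array, and every other tissue lay below all 15 of these arrays. Choroid plexus at 0.59, kidney at 0.57, adrenal at 0.40 and liver at 0.39 came next, and their array ranges overlapped.

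Brain tissue formed a narrow middle band. The 21 neural tissues other than choroid plexus, retina and pituitary lay between 0.12 in pons and -0.36 in amygdala, and the array ranges of neighbours in this order overlapped. White adipose tissue, at -0.24, fell within the band. Below the band came testes at -0.39 and thymus at -0.48, then retina at -0.81, pituitary at -0.81 and spleen at -1.11. The median of all genes on the same scale stayed near 0 in the high tissues, -0.08 in heart and -0.10 in brown adipose tissue, and was -0.26 in spleen.

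**Figure D1:**
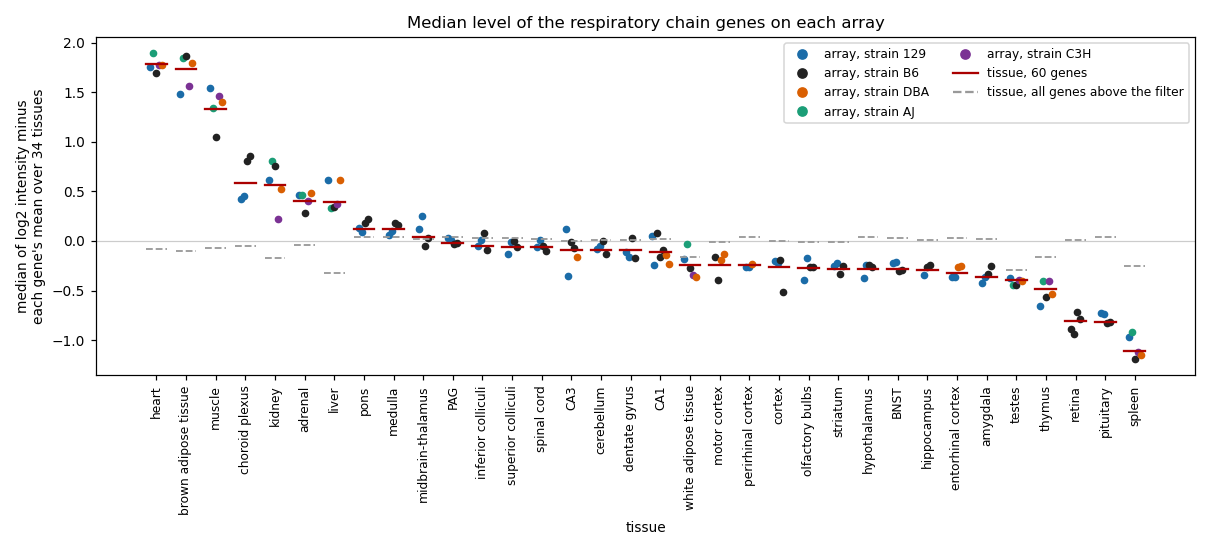
Median centred log2 level of the 60 measured respiratory chain and ATP synthase genes on each array (points, coloured by strain), with the tissue level (red lines), the level of all genes above the filter (grey dashes) and tissues in falling order along the x axis. The 15 arrays of heart, brown adipose tissue and muscle sit above all others, brain regions form a band around 0, and retina, pituitary and spleen lie at the bottom.

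The members kept this order largely together. Each member's profile over the 34 tissues was correlated with the median profile of the others, as a description, since these points share arrays and scaling. The median r was 0.91, and 52 of the 60 members (86.7%) passed 0.7. Of the 4840 other genes with a mean above 5.73, 180 passed it (3.72%), and their median r was -0.07. These genes were not matched to the members in brightness. Without heart, muscle and brown adipose tissue the members' median r was 0.83 over 31 tissues, and within the 21 brain tissues alone it was 0.70. In complex I the closest member was Ndufs1, the large iron-sulfur subunit, at 0.97, and the least close was the dim Ndufa1 at -0.25. In complex II Sdhb, the iron-sulfur subunit, had 0.97 and Sdha, the catalytic flavoprotein, 0.74. In complex III Uqcr10 had 0.96 and Uqcrb 0.90. In complex IV Cox5b had 0.98 and Cox8a -0.24. In complex V Atp5c1, the rotating gamma subunit, had 0.96 and Atp5j2 0.22. Cox8a and Atp5j2 passed the filter in no tissue, so no profile is read from their r. Among the brighter members the lowest were Cox8c (-0.16) in complex IV and Atp5g2 (0.68) in complex V. Of the assembly factors Ndufaf1 had 0.91 and Ndufaf4 0.62.

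**Figure D2:**
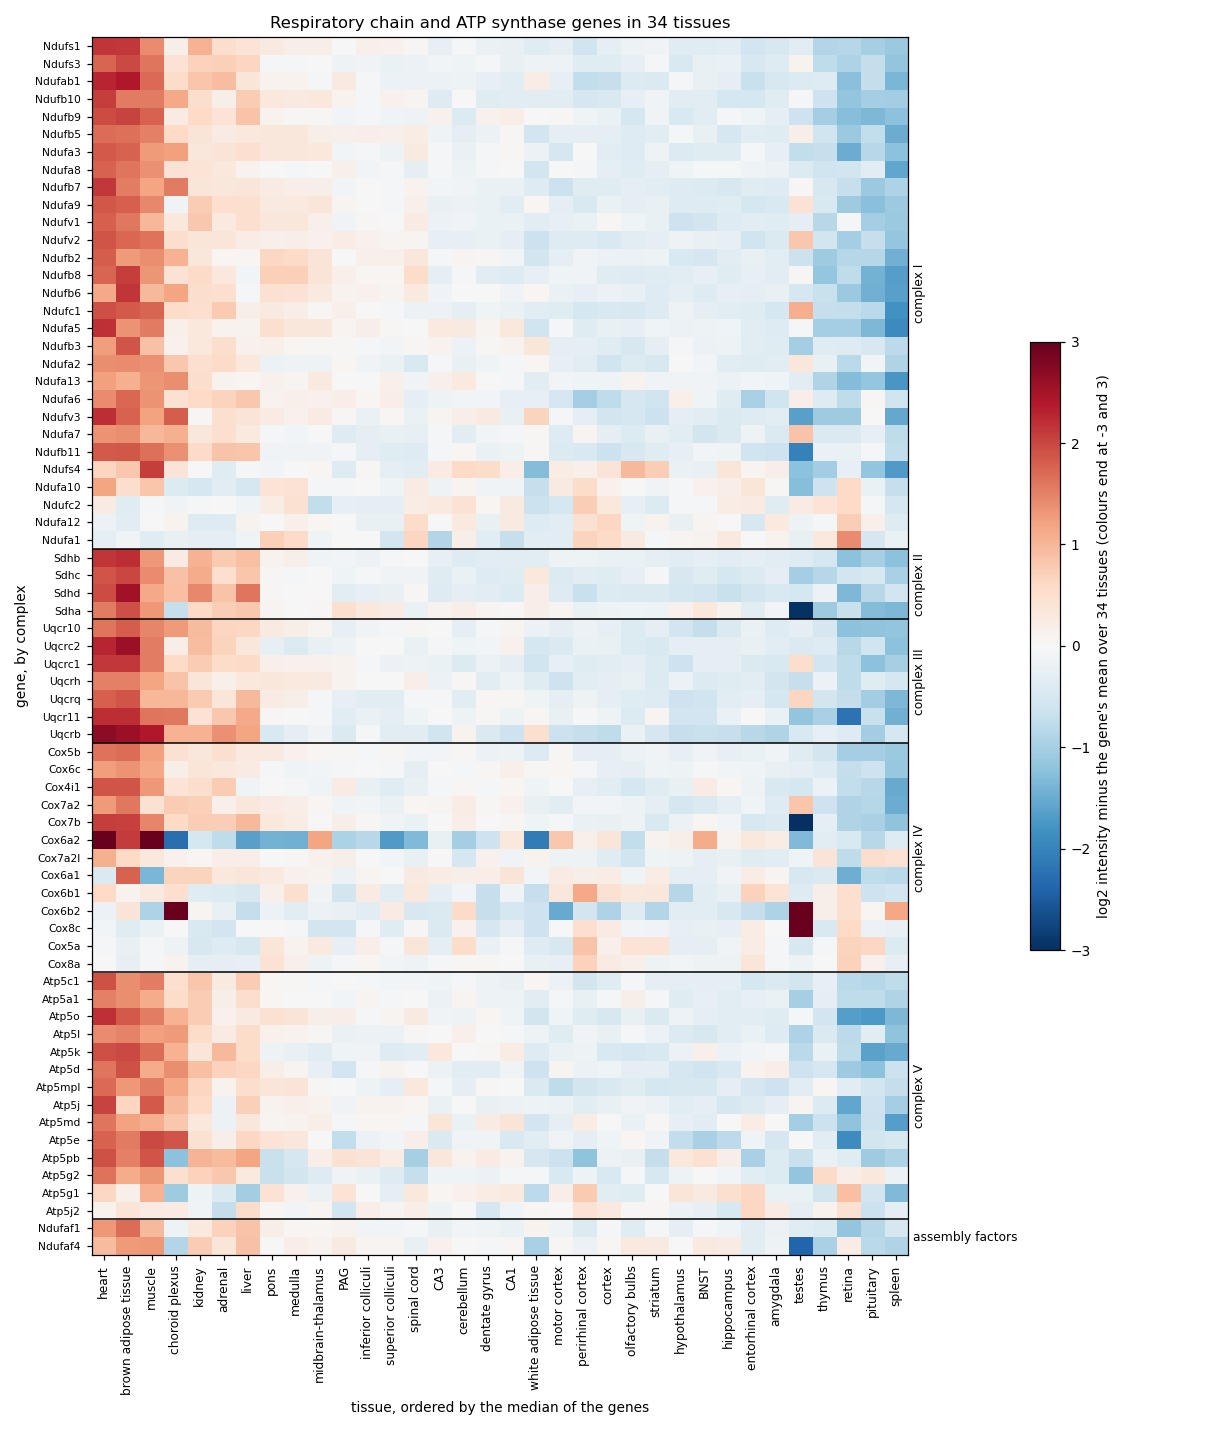
Centred log2 level of every member (rows, grouped by complex) in the 34 tissues (columns). Most rows share the high heart, brown adipose and muscle columns and the low spleen column, and a few complex IV rows, Cox6a2, Cox6b2 and Cox8c among them, show a pattern of their own.

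Outside the rule, the 10 genes with the profile most like the members' median were Fmc1 (r = 0.96 over 34 tissues), an assembly factor of ATP synthase, Samm50 (0.94), which inserts proteins into the outer membrane, and Coq9 (0.94), needed to make ubiquinone. Next came Cyc1 (0.93), the cytochrome c1 subunit of complex III, Fh1 (0.92), the fumarase of the citric acid cycle, Sod2 (0.91), the superoxide dismutase of the matrix, and cytochrome c, Cycs (0.91). Suclg1 (0.91), a subunit of succinyl-CoA ligase, Mrpl28 (0.91), a protein of the mitochondrial ribosome, and 0610012G03Rik (0.91) completed them.

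Each body tissue was then set against the mean of the other 9, with strain as a term (limma, 5 against 45 arrays). A call needed an adjusted p under 0.05 together with a log2 difference of at least 1. In these fits 63 of the 69 members passed the filter on low values, and the other 6 were not tested.

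In heart 53 members were higher and 0 lower, where 11.7% of all genes tested were higher and 8.75% lower. The members' median difference was 1.49, against -0.06 for all genes. All 4 tested members of complex II and all 7 of complex III were higher, with 23 of 26 in complex I, 12 of 13 in complex V and 6 of 11 in complex IV. Ndufa5, an accessory subunit of complex I, read 5886 (129), 5285 (AJ), 5259 (B6), 4717 (C3H) and 4898 (DBA) on the heart arrays. The other 45 body arrays ran from 265.55 through a median of 1197 to 4288, so the groups did not overlap. The difference was 2.20 ± 0.10 (SE, adjusted p = 1.21e-21). Ndufv3, an accessory subunit of the NADH-binding module, was higher by 2.18 ± 0.16 (adjusted p = 1.10e-15), and Cox7b, a small complex IV subunit, by 1.99 ± 0.13 (adjusted p = 3.46e-17).

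In brown adipose tissue 52 members were higher and 0 lower, where 11.7% of all genes were higher and 9.84% lower. The members' median difference was 1.41, against -0.10 for all genes. Complex I had 25 of 26 members higher, complex II 4 of 4, complex III 7 of 7, complex IV 7 of 11, complex V 7 of 13 and the assembly factors 2 of 2. Uqcrc2, a core subunit of complex III, read 5087 (129), 5229 (AJ), 5746 (B6), 3816 (C3H) and 6298 (DBA). The other body arrays ran from 355 through a median of 1032 to 5515, and 4 of the 45 reached the lowest brown adipose array. The difference was 2.23 ± 0.10 (adjusted p = 1.00e-21). Ndufb6, a subunit of the membrane arm of complex I, differed by 2.10 ± 0.11 (adjusted p = 4.83e-20) and its neighbour in that arm Ndufb8 by 1.98 ± 0.11 (adjusted p = 6.48e-20).

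Muscle had 39 members higher and 2 lower, where 12.9% of all genes were higher and 11.9% lower, and a members' median of 1.07. With quantile normalization 25 were higher. By complex 18 of 26 were higher in complex I, 1 of 4 in complex II, 5 of 7 in complex III, 4 of 11 in complex IV, 10 of 13 in complex V and 1 of 2 assembly factors. Ndufs4, an accessory subunit of complex I, was dim elsewhere and read 219 (129), 167 (AJ), 129 (B6), 139 (C3H) and 174 (DBA) in muscle. The other body arrays ran from 6.01 through 29.2 to 85.3, below every muscle array, and the difference was 2.54 ± 0.14 (adjusted p = 1.55e-19). From complex V, Atp5e, the epsilon subunit, was higher by 1.60 ± 0.12 (adjusted p = 3.89e-15) and Atp5j, coupling factor 6, by 1.57 ± 0.09 (adjusted p = 8.82e-20). The lower members were Cox6b2, at -1.53 ± 0.34 (adjusted p = 1.16e-04), and Cox6a1, both described with the isoforms below.

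**Figure D3:**
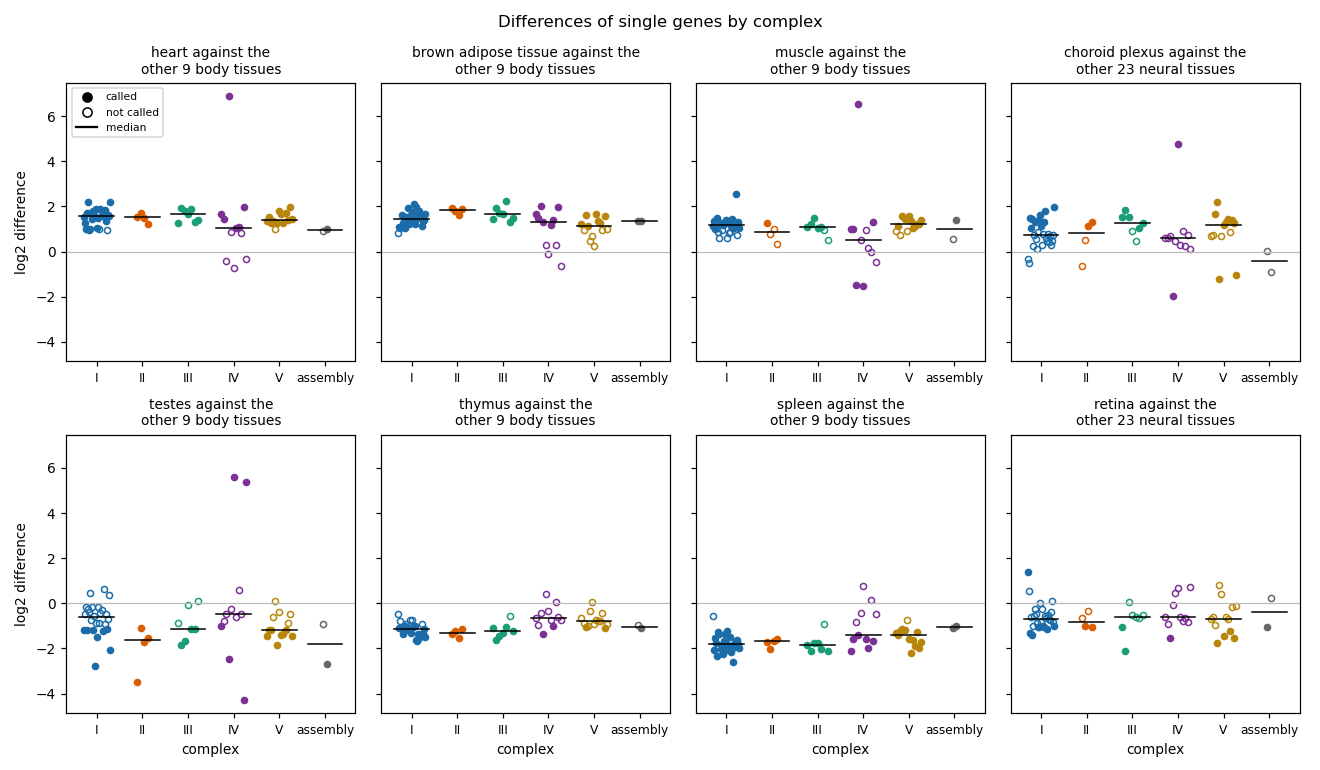
Log2 difference of each tested member (points) by complex in 8 tissues, each against the mean of the other body or neural tissues, with called members filled and the median of each complex as a line. In heart and brown adipose tissue every complex II and III point is filled and above 0, complex IV is the most scattered in heart, muscle and testes, and in spleen most points are filled and below 0.

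Read by complex, heart had centred medians of 1.81 for complex I, 1.93 for II, 2.12 for III, 1.27 for IV and 1.74 for V. Brown adipose tissue had 1.73 for I, 2.11 for II, 2.12 for III, 1.62 for IV and 1.45 for V. Muscle had 1.38 for I, 1.30 for II, 1.54 for III, 0.80 for IV and 1.53 for V. These medians are over different genes and probe sets and were not tested against each other.

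The adipose depots differed in nearly every member. Between brown and white adipose tissue 57 members were higher in brown and 0 lower. Of all 6688 genes tested, 12.4% were higher and 827 were lower. All 63 differences of the members were positive, with a median of 1.91. Sdhb read 5281 (129), 5369 (AJ), 5009 (B6), 4535 (C3H) and 5373 (DBA) in brown adipose tissue. In white adipose tissue it read 930 (129), 1051 (AJ), 860 (B6), 750.1 (C3H) and 798 (DBA). Each strain's brown depot was several fold above its white depot, a difference of 2.55 ± 0.11 (adjusted p = 9.95e-22). In complex III Uqcrc2 differed by 3.12 ± 0.14 (adjusted p = 1.07e-21), and the other core subunit Uqcrc1 by 2.73 ± 0.13 (adjusted p = 1.44e-20). Uqcrc1 read 5217 to 7047 in brown adipose tissue, against 748 to 1036 in white.

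Muscle markers differed among the brown adipose arrays. The summed intensity of the 10 muscle markers was 27592 (C3H), 14307 (B6), 13985 (129) and 12959 (AJ) on 4 brown adipose arrays and 432 on the DBA array, where 3 of the 10 lay at the floor. In muscle itself the sum ran from 93411 to 127409. The members' centred median was 1.79 on the DBA array, against 1.48 to 1.86 on the other 4. With the DBA array alone for brown adipose tissue, an alternative chosen after seeing its low muscle markers, 51 members were higher than in the other body tissues and 56 higher than in white adipose tissue. In that fit the lone array is assumed to vary like the other groups, which supply the spread, and strain and sample cannot be told apart.

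Heart and muscle differed little by the fold threshold: 1 member was higher in heart and 1 lower, where 8.25% of all genes were higher and 8.07% lower. Yet 58 of 63 differences were positive, with a median of 0.37, and 32 members were higher at an adjusted p of 0.05 alone, where 21.2% of all genes were. Ndufv3 read 1031 (129), 1663 (AJ), 1405 (B6), 1313 (C3H) and 1330 (DBA) in heart. In muscle it read 849.7 (129), 849.3 (AJ), 398 (B6), 626 (C3H) and 688 (DBA). All heart arrays lay above all muscle arrays, by 1.02 ± 0.21 (adjusted p = 1.29e-04). Ndufs4 lay the other way, at 45.6 to 84.5 in heart, against 129 to 219 in muscle, a difference of -1.42 ± 0.19 (adjusted p = 4.38e-08). Ndufv3 was not called without the B6 muscle array (0.85), the B6 heart array (0.96), the DBA heart array (0.99) or the C3H muscle array (1.00). The count of 2 was 1 without the B6 muscle array, 1 without the B6 heart array and 1 with quantile normalization.

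Brown adipose tissue and heart were close for most members. There were 2 members higher in brown adipose tissue and 2 lower, where 9.55% of all genes were higher and 10.2% lower, with a median of -0.01. The medians by complex were -0.05 for I, 0.24 for II, 0.00 for III, 0.00 for IV and -0.40 for V. Atp5j read 1111 (129), 1361 (AJ), 1260 (B6), 1333 (C3H) and 1245 (DBA) in brown adipose tissue. In heart it read 3108 (129), 3472 (AJ), 3434 (B6), 3067 (C3H) and 3434 (DBA), and the groups lay far apart, by -1.39 ± 0.11 (adjusted p = 1.01e-13). Atp5j was not called in brown adipose tissue against the other body tissues (0.25 ± 0.09, adjusted p = 9.20e-03). Ndufb6 went the other way, at 4091 to 6283 in brown adipose tissue, against 1938 to 3469 in heart, a difference of 1.01 ± 0.15 (adjusted p = 3.06e-07). It lay at the fold threshold and was not called without any of 5 arrays in turn: AJ, DBA and B6 brown adipose tissue and 129 and DBA heart (0.89 to 0.99).

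All 4 subunits of complex II were called in brown adipose tissue and in heart. In brown adipose tissue Sdha was higher by 1.95 ± 0.12, Sdhb by 1.80 ± 0.08, Sdhc by 1.63 ± 0.09 and Sdhd by 1.87 ± 0.09. In heart the differences were 1.53 ± 0.12 for Sdha, 1.72 ± 0.08 for Sdhb, 1.51 ± 0.09 for Sdhc and 1.24 ± 0.09 for Sdhd. Sdhc and Sdhd form the membrane anchor that holds the catalytic pair Sdha and Sdhb. In muscle only Sdha passed, at 1.25 ± 0.12 (adjusted p = 1.57e-12), and Sdhb had 0.78 ± 0.08, Sdhc 0.99 ± 0.09 and Sdhd 0.33 ± 0.09. All 4 were lower in spleen, from -2.01 for Sdhb to -1.57 for Sdhd, and all 4 were lower in testes.

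The cytochrome c oxidase isoforms had patterns of their own. Cox6a2 is the heart and muscle form of subunit 6a and Cox6a1 the form of other tissues. Cox6a2 read 12187 (129), 11896 (AJ), 11519 (B6), 11297 (C3H) and 10796 (DBA) in heart. In muscle it read 8044 (129), 8558 (AJ), 8711 (B6), 9725 (C3H) and 10588 (DBA). The next tissue lay far below, so Cox6a2 had the widest range of all members, 9.39 over the tissue means. It was higher in heart by 6.91 ± 0.49 (adjusted p = 4.41e-16) and in muscle by 6.53 ± 0.49 (adjusted p = 2.15e-15). All heart arrays lay above all muscle arrays, with the lowest heart array at 10796 and the highest muscle array at 10588. The difference between heart and muscle was 0.34 ± 0.65 and not called by limma (adjusted p = 0.717). Its standard error comes from a spread shared by all body tissues, among them brown adipose tissue, where Cox6a2 ran from 33.2 to 1522. The test therefore does not decide whether heart and muscle differ in Cox6a2.

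Cox6a1 ran against the other members in striated muscle. It read 8845 (129), 10400.4 (AJ), 10446 (B6), 7529 (C3H) and 11815 (DBA) in brown adipose tissue, above all 45 other body arrays, which ran from 969 through 2323 to 5525. Heart had 2027 (129), 2888 (AJ), 2803 (B6), 1570.5 (C3H) and 1704 (DBA). Muscle had 975 (129), 1156 (AJ), 1171 (B6), 1348 (C3H) and 969 (DBA), below every other body array. It was higher in brown adipose tissue by 2.01 ± 0.10 (adjusted p = 2.38e-20), lower in muscle at -1.46 ± 0.10 (adjusted p = 5.59e-16), and not called in heart (-0.42 ± 0.10, adjusted p = 6.41e-04). Between brown adipose tissue and heart Cox6a1 differed by 2.19 ± 0.14 (adjusted p = 4.43e-17) and Cox6a2 by -5.02 ± 0.65 (adjusted p = 1.86e-08).

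**Figure D4:**
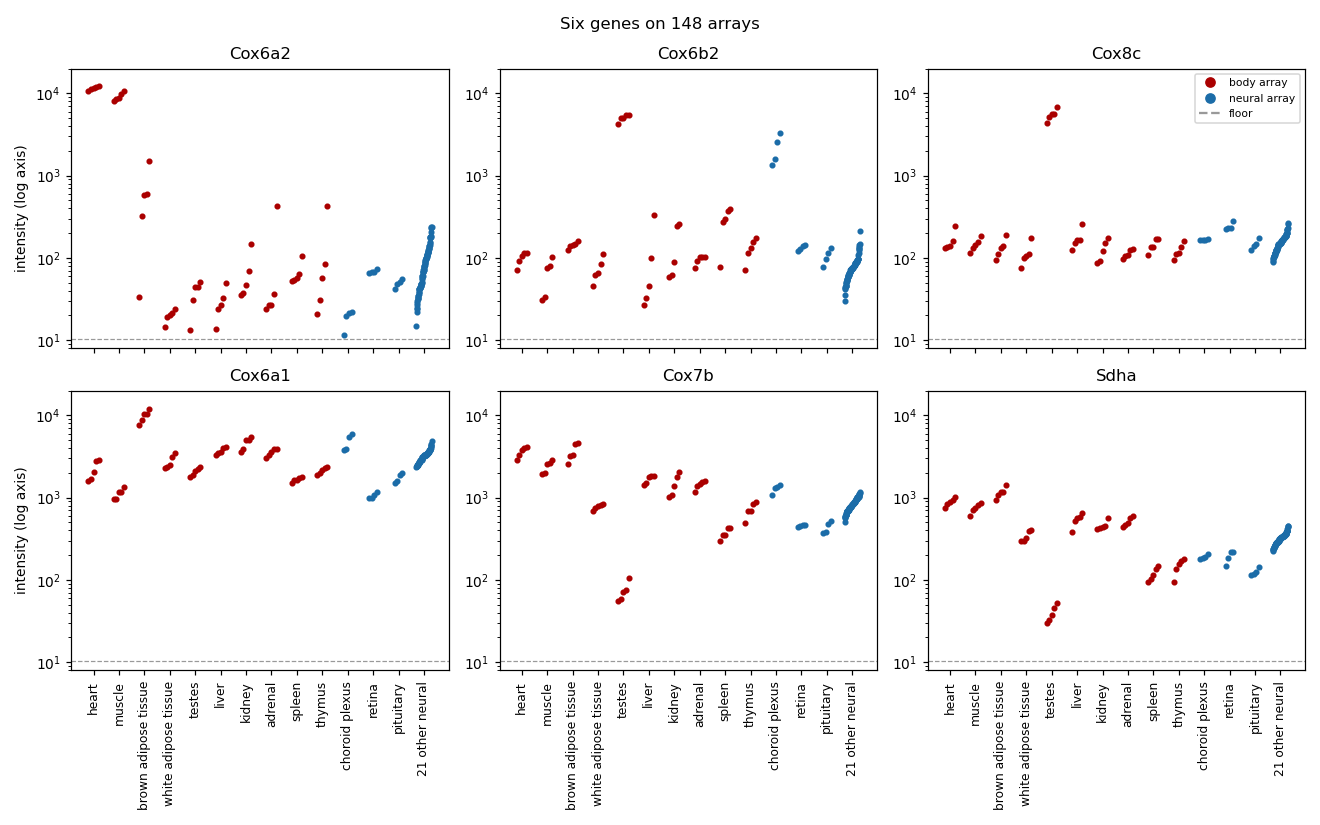
Intensity on a log axis of 6 members on each array used (red points for body, blue for neural arrays), by tissue, with the floor as a dashed line. Cox6a2 peaks in heart and muscle, Cox6a1 in brown adipose tissue, and Cox6b2 and Cox8c in testes, with Cox6b2 also high in choroid plexus, while Cox7b and Sdha are lowest in testes.

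In brown adipose tissue, thymus and adrenal, the arrays highest in Cox6a2 were also highest in muscle markers. In brown adipose tissue it read 1522 (C3H), 600.4 (B6), 575 (AJ), 319 (129) and 33.2 (DBA), and the muscle marker sums stood at 27592 on the C3H and 432 on the DBA array. In thymus it read 430.1 on the C3H array, against 20.7 to 84.2 on the other 4, with a muscle marker sum of 13351 on C3H and 404 to 825 on the others. In adrenal it read 432 on the 129 array, against 23.8 to 35.9, with sums of 11472 on 129 and 238 to 1126 on the others. In white adipose tissue it read 14.2 to 23.7 and the sums were 347 to 1331, and the array with the lowest sum, AJ, had the highest Cox6a2. Spleen read higher, 52.2 to 104.7, at sums of 195 to 307. The part of muscle RNA in these levels was not tested. Cox6a2 was called higher in brown adipose tissue than in the other body tissues (1.33 ± 0.49, adjusted p = 0.0166) and than in white adipose tissue (4.19 ± 0.65, adjusted p = 8.13e-07). With the DBA array alone for brown adipose tissue, the difference from white adipose tissue was 1.02 and not called, again with the spread taken from the other groups. Cox6a2 was called lower in white adipose tissue (-3.32 ± 0.49), liver (-2.80 ± 0.49), testes (-2.46 ± 0.49) and adrenal (-1.85 ± 0.49). It was also called lower in kidney (-1.58 ± 0.49), spleen (-1.41 ± 0.49) and thymus (-1.35 ± 0.49). In each case the mean of the other 9 tissues includes heart and muscle.

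**Figure D5:**
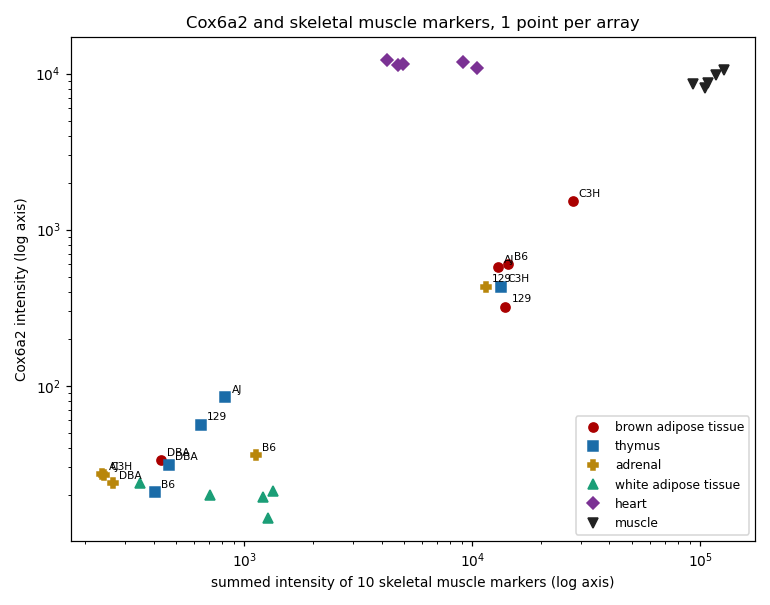
Intensity of Cox6a2 against the summed intensity of 10 skeletal muscle markers, both on log axes, with 1 point per array of 6 body tissues. The DBA brown adipose array, at 33.2 and a marker sum of 432, lies apart from the other 4 brown adipose arrays, C3H thymus and 129 adrenal lie apart from their own tissues, and heart is high in Cox6a2 at sums of 4218 to 10506.

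Cox4i1, the common form of subunit 4, read 562 (129), 513 (AJ), 473 (B6), 518 (C3H) and 772 (DBA) in heart, and 48.9 to 56.1 on the 5 spleen arrays. It was higher in heart by 1.67 ± 0.14 and in brown adipose tissue by 1.67 ± 0.14, and lower in spleen at -2.12 ± 0.14 (adjusted p = 1.08e-16). Cox7a2, the partner of the excluded heart form Cox7a1, read 4350 (129), 6347 (AJ), 5460.4 (B6), 4838 (C3H) and 6042 (DBA) in brown adipose tissue. It was higher there by 1.41 ± 0.09 (adjusted p = 1.18e-17), higher in heart by 1.09 ± 0.09 and lower in spleen (adjusted p = 9.16e-23), where it read 500.9 to 719.1, below every other body array. Cox7a2l, which joins complexes III and IV into supercomplexes, had 0.81 ± 0.12 in heart, 0.30 ± 0.12 in brown adipose tissue and 0.13 ± 0.12 in spleen, none past the fold threshold. In spleen Cox7a2l lay 1.56 above the members' median and Cox6b2 2.28 above it. Cox6b1, the partner of Cox6b2, was dim, at 0.86 ± 0.28 in heart. It was read by a single probe set, with the suffix r, whose part in the low reading was not tested. Of the c-ring genes of ATP synthase, Atp5g2 was higher in heart (1.26 ± 0.11, adjusted p = 1.07e-12), and the dim Atp5g1 was higher in muscle (1.45 ± 0.25, adjusted p = 4.15e-06).

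Testes combined 28 lower members with 2 that were many fold higher, where 25.3% of all genes were lower and 20.8% higher, and the lower members were 44.4% of those tested. The median was -0.87, against -0.20 for all genes. The higher members were the testis isoforms. Cox6b2, the testis form of subunit 6b, read 5014 (129), 5067 (AJ), 4201 (B6), 5406 (C3H) and 5383 (DBA), and the other 45 body arrays ran from 26.9 through 102 to 390.3. Cox8c, the testis form of subunit 8, read 6812 (129), 5589 (AJ), 4320 (B6), 5548 (C3H) and 5175 (DBA), and the other 143 arrays of the atlas reached 276.5 at most. Neither gene overlapped another body tissue, with differences of 5.61 ± 0.34 for Cox6b2 (adjusted p = 4.46e-19) and 5.36 ± 0.14 for Cox8c (adjusted p = 2.83e-31). A further probe set of each gene was highest in testes too, with r of 0.97 for Cox6b2 and 0.95 for Cox8c to the one used, while the remaining Cox6b2 probe set was highest in retina, with r of -0.08.

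Among the lower members in testes, Cox7b read 54.6 (129), 58.0 (AJ), 104 (B6), 71.9 (C3H) and 75.3 (DBA), and the other body arrays ran from 294 through 1526 to 4562. Sdha read 32.1 (129), 45.4 (AJ), 52.4 (B6), 37.0 (C3H) and 30.1 (DBA), and the others ran from 94.2 through 485.5 to 1433. Both genes were below every other body array. The differences were -4.30 ± 0.13 for Cox7b (adjusted p = 1.55e-29) and -3.48 ± 0.12 for Sdha (adjusted p = 5.64e-28). Ndufb11, a complex I subunit, read 171 to 257 in testes, against 442 to 3315 elsewhere, and was lower at -2.77 ± 0.09 (adjusted p = 1.11e-27). The assembly factor Ndufaf4 was lower at -2.68 ± 0.14 (adjusted p = 3.68e-21). Cox7b and Ndufb11 lie on the X chromosome in the reference annotation, as does another member, the dim Ndufa1.

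Complex II was lower in testes as a whole: Sdhb had -1.08 ± 0.08, Sdhc -1.71 ± 0.09 and Sdhd -1.52 ± 0.09. Complexes III and V had 4 of 7 and 8 of 13 members lower, complex I 8 of 26, and complex IV 3 of 11 lower besides the 2 higher. Some members were level or above: Cox7a2 had 0.60 ± 0.09, Ndufc1 0.62, Ndufa7 0.45 and Ndufv2 0.38, none past the fold threshold. Set against the members' median in testes, Cox7b lay at -3.19, Sdha at -2.57, Ndufaf4 at -1.99 and Ndufb11 at -1.63, while Cox6b2 lay at 5.90 and Cox8c at 5.42.

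Spleen was the lowest tissue for the group, with 55 members lower and 0 higher, where 20.5% of all genes were lower and 15.7% higher. The members' median was -1.66, against -0.19 for all genes. By complex 25 of 26 were lower in I, 4 of 4 in II, 6 of 7 in III, 6 of 11 in IV, 12 of 13 in V and 2 of 2 assembly factors. Ndufc1, a small subunit of complex I, read 302 (129), 386 (AJ), 249 (B6), 280.1 (C3H) and 255 (DBA), and every other body array lay above, from 502 through 1715 to 4681. The difference was -2.59 ± 0.11 (adjusted p = 1.20e-23). Ndufa5 differed by -2.35 ± 0.10 (adjusted p = 8.73e-23), and Ndufab1, the mitochondrial acyl carrier protein, by -2.26 ± 0.09 (adjusted p = 4.76e-24). Atp5k, subunit e of ATP synthase, differed by -2.19 ± 0.19 (adjusted p = 1.55e-13).

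Thymus, the other lymphoid organ, had 33 members lower and 0 higher, where 17.0% of all genes were lower and 15.2% higher, with a median of -1.02. With quantile normalization 15 were lower. The lower members were 18 of 26 in complex I, 4 of 4 in II and 6 of 7 in III, but 2 of 11 in IV and 2 of 13 in V. Ndufb9 of complex I read 383 (129), 627 (AJ), 464 (B6), 539 (C3H) and 493 (DBA) in thymus, with a median of 1561 over the other arrays, 7 of which reached down into this range. It differed by -1.66 ± 0.10 (adjusted p = 1.01e-18), Uqcr11 of complex III by -1.62 ± 0.12, Ndufb8 by -1.61 ± 0.11 and Sdhc by -1.53 ± 0.09. Markers of neighbouring tissues were unequal on these arrays. Ucp1 read 1289 and Cidea 613 on AJ, and Ucp1 read 547 on DBA, and the muscle marker sum was 13351 on C3H. The members' centred median was -0.40 on AJ and -0.40 on C3H, against -0.66 to -0.53 on the other 3 arrays, and the part of the other tissues in these levels was not tested.

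White adipose tissue had 11 members lower and 0 higher, where 9.06% of all genes were lower and 11.7% higher, and a median of -0.69. Apart from Cox6a2, the largest were Uqcrc1 at -1.35 ± 0.10 (adjusted p = 6.67e-15), Ndufv2, an iron-sulfur subunit of the NADH-binding module, at -1.24 ± 0.09 (adjusted p = 8.38e-16), and Uqcrc2 at -1.24 ± 0.10. The count was 17 without the AJ white adipose array.

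Liver, kidney and adrenal were close to the mean of the other body tissues. Liver had 0 members higher and 2 lower, where 13.2% of all genes were higher and 21.1% lower, with a median of 0.05, and the lower ones were Cox6a2 and Cox6b2 (-1.32 ± 0.34, adjusted p = 6.08e-04), the second not called without the DBA liver array (-0.99). Kidney had 0 higher and 1 lower, where 11.8% were higher and 10.7% lower, with a median of 0.18, and adrenal 0 higher and 1 lower, where 7.98% were higher and 5.97% lower, with a median of 0.01. In both the lower member was Cox6a2. The centred median of complex II was 1.08 in kidney, 0.87 in liver, 0.76 in adrenal and 0.19 in white adipose tissue, in each the highest of the complexes, which were not tested against each other. In these 4 tissues 0 of its 4 members were called higher. Sdhd had 0.65 ± 0.09 in kidney and 0.84 ± 0.09 in liver, short of the fold threshold. The adrenal arrays carried Ucp1 at 871 to 3862 and the brown fat gene Cidea at 2387 to 3229, against 7575 to 10413 for Cidea in brown adipose tissue, and the part of this in the adrenal levels was not tested.

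Neural tissue was compared with body tissue on tissue means, 24 against 10. Here 64 members were tested, and 0 were higher and 2 lower in neural tissue, where 14.7% of all genes were higher and 13.6% lower. Uqcrb, the ubiquinone-binding protein of complex III, averaged 8.78 over neural and 10.26 over body tissues, a difference of -1.49 ± 0.27 (adjusted p = 2.06e-05). Sdhd averaged 9.34 over neural and 10.54 over body tissues, a difference of -1.20 ± 0.24 (adjusted p = 8.62e-05). In all 58 of the 64 differences were negative, with a median of -0.59, against -0.05 for all genes. At an adjusted p of 0.05 alone 35 members were lower, where 27.0% of all genes were. The count of 2 was 8 without spleen, 4 without testes and 1 with quantile normalization.

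Within the nervous system, choroid plexus stood highest. This tissue, which secretes cerebrospinal fluid, had 25 members higher and 3 lower than the mean of the other 23 neural tissues, where 15.7% of all genes were higher and 19.0% lower. The median was 0.74, against -0.12. With quantile normalization 14 members were higher. The members' centred median was 0.43 and 0.45 on the 129 arrays and 0.81 and 0.85 on the B6 arrays, without overlap, a difference that was not tested. Complex III had 5 of 7 members higher, complex V 7 of 13, complex I 10 of 27, complex II 2 of 4 and complex IV 1 of 11. That complex IV member was Cox6b2, which read 1342 and 1588 on the 129 arrays and 2569 and 3255 on the B6 arrays. The other 94 neural arrays ran from 29.9 through 76.9 to 211, with no overlap, and the difference was 4.78 ± 0.14 (adjusted p = 8.98e-47).

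Atp5e read 1762 and 2298 on the 129 choroid plexus arrays and 3704 and 4654 on the B6 arrays, above all other neural arrays (166 through 698 to 1288). It was higher by 2.20 ± 0.16 (adjusted p = 1.65e-22). Uqcr11, a small subunit of complex III, read 1877 and 2267 on 129 and 2996 and 3405 on B6, and was higher by 1.86 ± 0.12 (adjusted p = 8.34e-26). Ndufv3 was higher by 2.00 ± 0.13 (adjusted p = 2.77e-24). In complex II the anchors Sdhd (1.31 ± 0.07) and Sdhc (1.14 ± 0.07) passed, Sdhb had 0.51 ± 0.08, and Sdha had -0.64 ± 0.07 without passing the fold threshold. The lower members were Cox6a2 (-1.98 ± 0.19), Atp5g1 (-1.22 ± 0.24) and Atp5pb (-1.02 ± 0.19), subunit b of the stator. The Atp5pb call was lost without the first B6 choroid plexus array (-0.66). On the 4 arrays the sum of the choroid markers ran from 27729 to 28578, and the sum of neuron markers was 2243 and 516 on 129 and 803 and 312 on B6.

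Pituitary and retina lay at the low end. Pituitary had 13 members lower and 0 higher, where 12.9% of all genes were lower and 14.3% higher, with a median of -0.66. Ndufb8 read 416 and 497 on the 129 arrays and 409 and 391 on B6, below all other neural arrays (560 through 1021 to 1984), and was lower at -1.35 ± 0.08 (adjusted p = 2.09e-28). Atp5o, the subunit that gives ATP synthase its oligomycin sensitivity, was lower at -1.62 ± 0.10, Atp5k at -1.48 ± 0.18 and Ndufb6 at -1.41 ± 0.09.

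Retina, measured in B6 only, had 18 members lower and 1 higher, where 12.6% of all genes were lower and 12.9% higher, with a median of -0.65. With quantile normalization 9 were lower. Uqcr11 read 178, 149.7, 232 and 171 on the retina arrays, against 496 through 769 to 3405 on the other neural arrays, with no overlap, and was lower at -2.10 ± 0.12 (adjusted p = 6.06e-28). Atp5e was lower at -1.74 ± 0.16, Cox6a1 at -1.55 ± 0.09 and Atp5o at -1.54 ± 0.10. The higher member was the dim X-linked Ndufa1, which read 75.0, 66.9, 58.2 and 86.2, just above the other arrays, whose highest was 56.3, a difference of 1.41 ± 0.24 (adjusted p = 3.71e-07).

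Over the other 21 neural tissues, 4 of 1344 pairs of member and tissue were called higher and 4 lower, where 2.52% of all such pairs were higher and 1.76% lower. Most of these were Cox6a2, which was higher in midbrain-thalamus (1.62 ± 0.19, adjusted p = 4.94e-11), in BNST (1.56 ± 0.19, adjusted p = 1.75e-10) and in motor cortex (1.23 ± 0.20, adjusted p = 6.53e-07). It read 234 and 234 on 129 and 180.3 and 154 on B6 in midbrain-thalamus, and 205 and 235 on 129 and 173 and 153 on B6 in BNST. In superior colliculi it read 24.5 and 26.6 on 129 and 23.8 and 32.6 on B6, lower at -1.40 ± 0.19 (adjusted p = 6.03e-09), and it was lower in medulla (-1.12 ± 0.19) and pons (-1.08 ± 0.19). Without the second B6 medulla array the medulla value was -0.71 and not called. The median over neural arrays was 67.3 without midbrain-thalamus, so the gene was read well above the floor in the high regions and stayed far below its level in heart. The remaining pairs were Cox6b2 lower in motor cortex (-1.37 ± 0.15) and the dim Cox6b1 higher in perirhinal cortex (1.11 ± 0.31, adjusted p = 3.74e-03), which was 0.92 and not called without the second 129 array.

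With no fold threshold, 9 of these 21 tissues had 20 or more of the 64 tested members called in 1 direction, at an adjusted p of 0.05 alone. Higher members numbered 41 in pons, where 21.9% of all genes were higher, 36 in medulla (20.6% of all genes) and 32 in midbrain-thalamus (19.6%). There were 22 in PAG (20.3%) and 22 in spinal cord (23.1%). Lower members numbered 25 in amygdala, where 16.1% of all genes were lower, 24 in hypothalamus (17.5%), 23 in BNST (19.4%) and 21 in entorhinal cortex (16.5%). These tissues were not tested against each other.

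In the 20 neural tissues with both strains, 0 members were higher and 1 lower in 129 than in B6 at 1.5-fold. Of all 6115 genes tested, 41 were higher and 1.65% lower, the same share as 1 of 61 members (1.64%). The lower member was Cox6c, a small complex IV subunit, at -0.62 ± 0.05 (adjusted p = 6.09e-19). On neural arrays it ran from 1085 through 1737 to 2022 in 129, against 1439 through 2519 to 4000 in B6, and 129 was lower in 20 of 20 tissues. In body tissues it ran from 861 through 2274 to 4890 in 129, against 1056 through 3101 to 6799 in B6, lower in 10 of 10 tissues, with a difference of -0.51 ± 0.09 (adjusted p = 2.57e-04) that stayed under 1.5-fold. The difference between neural and body tissues was -0.11 (adjusted p = 0.487). The Cox6c probe set may share sequence with other transcripts by its suffix, and a sequence difference under a probe was not tested. The call was lost without the choroid plexus arrays and when all probe sets of the gene were averaged.

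In body tissues no member was called at 1.5-fold between B6 and any of 129, AJ, C3H and DBA by limma, where 3.39% of all pairs of gene and strain were. At an adjusted p of 0.05 alone 15 members were higher and 2 lower in AJ, where 385 of 6688 genes were higher and 599 lower. In 129 there were 4 higher and 2 lower (232 and 266 of all genes). DBA had 3 higher and 0 lower (88 and 124), and C3H 1 higher and 0 lower (49 and 108). At an unadjusted p under 0.05 there were 14 of 63 members for 129, where 22.6% of all genes passed, and 31 for AJ, where 31.4% did. There were 8 for C3H (17.7% of all genes) and 13 for DBA (16.8%). The strain difference of 129 minus B6 was lower in neural than in body tissues for 10 members and higher for 0, where 7.19% of all genes were lower and 9.67% higher. For Ndufs1 it was -0.11 in neural and 0.38 in body tissues, apart by -0.49 (adjusted p = 1.59e-06). For Ndufa9 it was -0.05 and 0.41, apart by -0.46 (adjusted p = 1.24e-05), and for Ndufv1, the flavin-bearing subunit, -0.02 and 0.39, apart by -0.41 (adjusted p = 0.00104). The count of 10 was 6 without liver and 6 without muscle. With the animal or pool as a replicate block it was 8, 7 of them shared. In each of these 3 complex I genes 129 was above B6 in 9 of 10 body tissues.

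Where a gene had several probe sets, 14 of the 26 further probe sets passed the filter and 8 of them followed the one used at an r above 0.7. The largest ranges over tissue means, after Cox6a2, were 7.02 for Cox6b2, 5.67 for Cox7b, 5.65 for Cox8c and 4.89 for Sdha. A distance of 1.5 or more from the members' median was seen in 25 pairs of member and tissue, in 10 members. Besides those named above they included Cox6a1 in muscle (-2.69) and heart (-2.21), Cox6a2 in choroid plexus (-2.86) and Atp5pb in choroid plexus (-1.83).

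Other mitochondrial genes were read from fixed lists in the same fits. In them 11.7% of all genes tested were higher in brown adipose tissue, 11.7% in heart, 12.9% in muscle and 15.7% in choroid plexus. In testes 20.8% were higher and 25.3% lower. Lower genes were 20.5% in spleen, 17.0% in thymus and 13.6% in neural against body tissue. By pair, 12.4% were higher in brown than in white adipose tissue and 8.25% in heart than in muscle. Of 15 tested citric acid cycle genes, 14 were higher in brown adipose tissue, 12 in heart and 8 in muscle, and 15 were lower in spleen and 12 in thymus. Of 11 fatty acid oxidation genes, 10 were higher in brown adipose tissue and 10 in heart, but 1 in muscle, and 8 were higher in heart than in muscle. All 11 were higher in choroid plexus and all 11 lower in neural than in body tissue. Of 8 assembly and insertion factors, 5 were higher in brown adipose tissue and 1 in heart, and of 14 import genes 7 were higher in brown adipose tissue and 3 in heart. Of 11 carriers and porins, 6 were higher in brown adipose tissue, 6 in heart and 2 in testes, with 7 lower in testes. The 2 higher carriers or porins in testes and the 1 assembly or insertion factor in heart lay near the shares of all genes. Of 8 regulators, 3 were higher in brown adipose tissue and 6 higher in brown than in white. Among them Esrra, the estrogen-related receptor alpha, was higher in brown adipose tissue by 1.19 ± 0.11 and had 0.79 ± 0.11 in heart. The coactivator Ppargc1a was higher in heart by 2.02 ± 0.18 and had 0.80 ± 0.18 in brown adipose tissue.

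The electron carrier between complexes III and IV followed the isoform pattern of testes. The testis cytochrome c Cyct was higher in testes by 4.37 ± 0.23 (adjusted p = 8.37e-21), and the somatic Cycs was lower at -2.11 ± 0.11 (adjusted p = 1.84e-21), as was Cyc1 at -2.05 ± 0.08. In brown adipose tissue Cycs was higher by 2.31 ± 0.11 and Cyc1 by 1.57 ± 0.08.

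The promoters of the members in RefSeq (GRCm38.p6) were searched, from 250 bases before to 50 after the start of the gene, on both strands. A promoter was found for 56 of the 69 members. The core of the motif of NRF-1, a regulator of respiratory chain genes, GCGCATGC, was in 10 of them, 17.9%, against 2.80% of 27025 promoters. The ETS core CCGGAAG was in 15, 26.8% against 9.12%. The YY1 core AAGATGG was in 7, 12.5% against 6.48%, and the estrogen-related receptor half-site AAGGTCA in 5, 8.93% against 4.66%. The CRE half-site TGACG was in 21, 37.5% against 21.0%. The muscle E-box CAGCTG was in 3, 5.36% against 16.1%, and the TATA box letters TATAAA in 5, 8.93% against 14.2%. None of these strings contains another, and a match is a match of letters only. The 27025 promoters were not matched to those of the members in base composition or expression. The part of either in these shares was not tested.

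The promoters below show a gene that moved with the group, Uqcrc1, the isoform that ran against it in muscle, Cox6a1, and the testis isoform, Cox6b2. Uqcrc1 lies on the plus strand at chr9:108936398-108936697, Cox6a1 on the minus strand at chr5:115348909-115349208, and Cox6b2 on the minus strand at chr7:4753045-4753344. Each is written 5′ to 3′ along its gene, with matches to the NRF-1 and ETS cores in capitals.
Uqcrc1: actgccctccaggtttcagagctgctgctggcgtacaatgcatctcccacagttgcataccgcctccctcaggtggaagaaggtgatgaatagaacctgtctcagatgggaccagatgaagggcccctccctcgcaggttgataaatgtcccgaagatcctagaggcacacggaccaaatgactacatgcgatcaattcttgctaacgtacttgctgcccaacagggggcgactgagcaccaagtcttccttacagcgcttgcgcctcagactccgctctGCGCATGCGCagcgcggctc
Cox6a1: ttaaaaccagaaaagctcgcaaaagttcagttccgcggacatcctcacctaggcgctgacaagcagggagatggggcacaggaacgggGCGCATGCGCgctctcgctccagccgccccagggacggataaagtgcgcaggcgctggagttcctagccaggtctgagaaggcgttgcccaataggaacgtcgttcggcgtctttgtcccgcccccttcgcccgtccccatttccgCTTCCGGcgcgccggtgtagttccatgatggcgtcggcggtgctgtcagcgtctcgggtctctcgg
Cox6b2: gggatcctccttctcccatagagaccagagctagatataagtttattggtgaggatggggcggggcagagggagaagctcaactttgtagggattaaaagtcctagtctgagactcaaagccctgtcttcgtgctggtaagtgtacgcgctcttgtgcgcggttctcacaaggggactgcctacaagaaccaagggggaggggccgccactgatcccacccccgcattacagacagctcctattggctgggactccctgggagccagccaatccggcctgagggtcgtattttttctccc
In Uqcrc1 the capitals are a pair of overlapping NRF-1 cores on opposite strands, starting at bases 281 and 283 of the window, past the annotated start. In Cox6a1 such a pair starts at bases 89 and 91, and an ETS core, on the other strand, at base 235. The Cox6b2 window held the letters of neither core.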

How the data were processed

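The deposited values are 1 intensity per probe set and array on a linear scale, and 5.97% of them lie below 0. Which software, background correction and scale factor the authors used for these intensities is not given in the sources used here. Each array's upper quartile lay between 167 and 185, which points to scaling before deposit, and none was added. The 66 control probe sets were left out. Intensities under the 20th percentile of all deposited values, 10.41, were raised to it and expressed as log2, which understates the change of dim genes.

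In R 4.3.3, limma 3.58.1 was run with a trended prior variance on all genes above 5.73 in at least 1 tissue of the fit, and p-values of each contrast were adjusted by Benjamini-Hochberg. Calls needed an adjusted p under 0.05 and a log2 difference of 1 or more (strains 1.5-fold, the strain interaction the adjusted p alone). In simulated data of the same design, planted changes of 1.5 on the log2 scale were recovered at 99.5% to 100%. There were 0 false calls except 15 among 5599 genes for the strain interaction, whose called differences here were far smaller than 1.5. No other size was planted, and 1.5 lay above the thresholds on the difference, so high recovery was likely from the start. The same thresholds hold down false calls, except for the strain interaction, which had no such threshold. Whether the simulated spread matched that of the real tissues was not tested. These figures therefore give no power for the real arrays, for smaller changes or for dim genes. Neural and body tissues were compared on tissue means. The number of arrays limits the precision.

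The members, lists and tests were chosen with earlier results of these data known. Genes named are up to 4 called members per comparison and direction with the largest difference, the isoform families, the subunits of complex II, the members with the highest and lowest r per complex, the largest ranges, those 1.5 off the median, and the 10 other genes of highest r. Motifs and other genes were chosen outside that rule. Titles carry identifiers of animals or pools. These were fitted as a random replicate block, with a consensus correlation of 0.05 over body and 0.14 over neural arrays. The alternatives were another floor, quantile scaling, no filter, the adjusted p alone, averaged probe sets and leaving out arrays or tissues. Genes came from the platform annotation, promoters from RefSeq (GRCm38.p6). Of the probe sets matched, 10 with several symbols were not used. Tables and figures were made with Python 3.11.15, pandas 2.3.3 and matplotlib 3.10.9.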

Additional observations from a re-analysis of the deposited data

Results flagged for a closer look

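In 90 groups of 4 to 7 arrays, the highest or the lowest array was set against the others, a check that chance passes in about 1 of 20 groups. It marked 3. B6 cortex replicate 2 had the lowest members' median of the 4 cortex arrays, at -0.51. The array 129 hypothalamus replicate 1 had the lowest of the 4 hypothalamus arrays, at -0.37. On it the muscle genes Acta1 and Myh4 read 398 and 106, against 42.7 to 66.7 and 8.59 to 13.7 on the other 3, and their part in the level was not tested. Cox6a2 on the 129 adrenal array, at a log2 intensity of 8.75, was the highest of the 5 adrenal arrays, and that array also had the highest sum of muscle markers among them, 11472.

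The strain difference of 129 minus B6 differed between neural and body tissues for 10 members, by limma's interaction term. Of complex I these were Ndufs1 (-0.49), Ndufa9 (-0.46), Ndufv1 (-0.41), Ndufb9 (-0.25), Ndufa7 (-0.23) and Ndufb5 (-0.19). Of complex II they were Sdhd (-0.32) and Sdhb (-0.22), with Uqcrq (-0.27) of complex III and the assembly factor Ndufaf1 (-0.27). Adjusted p-values ran from 1.59e-06 for Ndufs1 to 0.0413 for Uqcrq. With the animal or pool as a replicate block 8 were called: Ndufa7 (adjusted p = 0.0779), Sdhb (0.0633) and Uqcrq (0.0616) were lost and Uqcrc1 was gained.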

How the results depend on the processing

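No direction reversed in the 77 named results under any alternative run. These were called members with the largest differences, so a reversal was unlikely from the start. Of 1244 alternative values of 77 named results, 1208 kept their call and 36 lost it. The counts without a fold threshold, at an adjusted p of 0.05 alone, were 35 lower members in neural against body tissue, 50 lower in testes, 58 lower in thymus, 56 lower in white adipose tissue and 89 called in adrenal, kidney and liver. In the body fits, with 63 members among 6688 genes, 2958 genes were lower in testes, 2493 in thymus and 2428 in white adipose tissue. There 1687 genes were higher and 1707 lower in adrenal, 1664 and 2476 in kidney, and 1633 and 3210 in liver. The member counts were also 53 higher in choroid plexus, 55 lower in pituitary, 50 lower in retina, 496 pairs in the other 21 neural tissues, 33 for heart against muscle, 22 for brown adipose tissue against heart, 10 for 129 against B6 in neural tissue and 27 for the strains in body tissue. Of 6351 genes in the neural fit, 2187 were higher in choroid plexus, 2178 lower in pituitary and 2317 lower in retina. In the other 21 tissues 775 to 1498 genes were higher and 813 to 1568 lower. Of 6688 genes 1421 were higher and 1327 lower for heart against muscle, and 1324 and 1544 for brown adipose tissue against heart. For 129 against B6 in neural tissue 807 of 6115 genes were higher and 705 lower. Quantile normalization gave 1 lower member in neural against body tissue, 25 higher in muscle, 15 lower in thymus, 14 higher in choroid plexus, 9 lower in retina, 1 for heart against muscle and 1 for the strains in body tissue. It kept 36 higher in brown adipose tissue and 39 in heart. The mean of all probe sets left 0 members for 129 against B6 in neural tissue. The causes were not tested.

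Leaving out 1 array or tissue gave 2 to 8 lower members in neural against body tissue (8 without spleen, 4 without testes), and 0 to 0 higher. It gave 49 to 53 higher in brown adipose tissue, 52 to 55 in heart, 35 to 44 in muscle and 22 to 27 in choroid plexus. Lower members ran from 54 to 55 in spleen, 27 to 28 in testes, 30 to 37 in thymus, 9 to 17 in white adipose tissue (17 without the AJ array), 12 to 14 in pituitary and 14 to 20 in retina. Calls ran from 3 to 5 in adrenal, kidney and liver, 7 to 9 in the other neural tissues, 57 to 58 for brown against white adipose tissue, 1 to 3 for heart against muscle (1 without the B6 array of either), and 3 to 4 for brown adipose tissue against heart. For the strains they ran from 0 to 1 in neural tissue (0 without choroid plexus), 0 to 0 in body tissue and 6 to 15 for the interaction (6 without liver or without muscle).

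With the identifier of the animal or pool as a replicate block, 53 members were higher in brown adipose tissue, 52 in heart and 39 in muscle, 55 were lower in spleen, 28 in testes and 34 in thymus, and 8 were called for the interaction. It moved no count by over 1.5 times. Dim members near the floor have understated differences, and the number of arrays, 3 to 7 a tissue, limits small shifts.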
